A study of Arabidopsis thaliana with 9 samples.

Results

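The comparison set both mutants of the PEAT complexes, pooled as 1 group, against wild type (WT), to describe the response that they share. Its members were the nuclear genes of Arabidopsis thaliana that reached 0.5 FPKM in 3 or more of the 9 libraries. They numbered 21168 of the 28117 genes in the deposited table. The unit, FPKM, divides the fragments of a gene by its transcript length and by the size of the library. It was inferred from the values, since the header names none. The mutant group held 3 libraries of arid2/3/4, which is mutated in 3 genes of ARID DNA-binding domain proteins, and 3 libraries of epcr1/2, which is mutated in 2 genes related to Enhancer of Polycomb. They were set against 3 libraries of wild type. All plants were 10-day-old seedlings raised at 22 °C on plates of MS medium, in days of 16 h light and 8 h dark, and RNA came from 1 g of whole seedlings. The alleles, the accession and whether replicates were separate plants are not given in the labels.

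PEAT complexes take their name from their subunits, the PWWP-domain, EPCR, ARID and telomere repeat binding (TRB) proteins. They associate with chromatin, where they have been linked to histone deacetylation, to histone acetyltransferases of the HAM type and to the silencing of heterochromatin. A seedling that lacks such a complex can change at its target genes and at genes further along, and a transcript level does not tell these apart.

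Each library detected between 22490 and 24297 nuclear genes. A rough depth, read from the steps of the lowest values, came to 18.9 to 27 M fragments for replicates 1 and 2, and to 51.7 to 60.6 M for replicates 3. Libraries 1 and 2 of a genotype were nearly alike (Pearson r 0.994 to 0.995 across genes), and library 3 stood apart from both (r 0.835 to 0.883). Replicates 1 and 2 may therefore share plants, in which case the p-values count too many independent samples. A fit in which they were averaged to 1 sample, with a term for library 3 as a batch, is called the averaged fit here and stands beside the results it changes. The summed FPKM of organ markers also moved with the mutants, as given with those genes.

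At an adjusted p under 0.05 (limma on log2(FPKM + 1), Benjamini-Hochberg over all tested genes), 4380 genes, or 20.7%, differed between the 6 mutant and the 3 WT libraries, and such genes are said to be called. Of them 1700 were higher in the mutants (8.03%) and 2680 were lower (12.7%). With the replicate number as a block the counts were 2684 and 4218, and in the averaged fit they were 538 and 870. Without WT replicate 1 they were 725 and 1155, and without WT replicate 2 they were 727 and 1326. The share of calls that were higher was 38.8%, against 47.6% after median centring. The median log2 difference of all tested genes was -0.08. The 8.03% higher and 12.7% lower of all tested genes are the baseline for each list and family below.

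A gene was counted in the common response when it was called in the pooled fit, when the 6 mutant libraries lay clear of the 3 WT libraries, and when each mutant differed from WT by at least 1 on the log2 scale in the same direction. This held for 1892 genes (8.94%), 788 higher (3.72%) and 1104 lower (5.22%). The 6 mutant libraries all lay above WT in 2249 genes (10.6%) and all below WT in 3180 genes (15%), whatever the size. Among the 788, the median log2 difference was 1.69 in arid2/3/4 and 1.91 in epcr1/2. Among the 1104, it was -1.44 in arid2/3/4 and -1.75 in epcr1/2. These medians follow from the rule that chose the genes and are a description. The smaller of both mutants' differences was between 1 and 1.1 in 282 of the 1892 genes, and 295 genes missed the rule with a value of 0.9 to 1. In the averaged fit 441 genes were common and higher and 660 common and lower, and 1051 of the 1892 were among them. From the libraries numbered 1 and 2 alone, 1739 genes were common and lower.

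**Figure D1:**
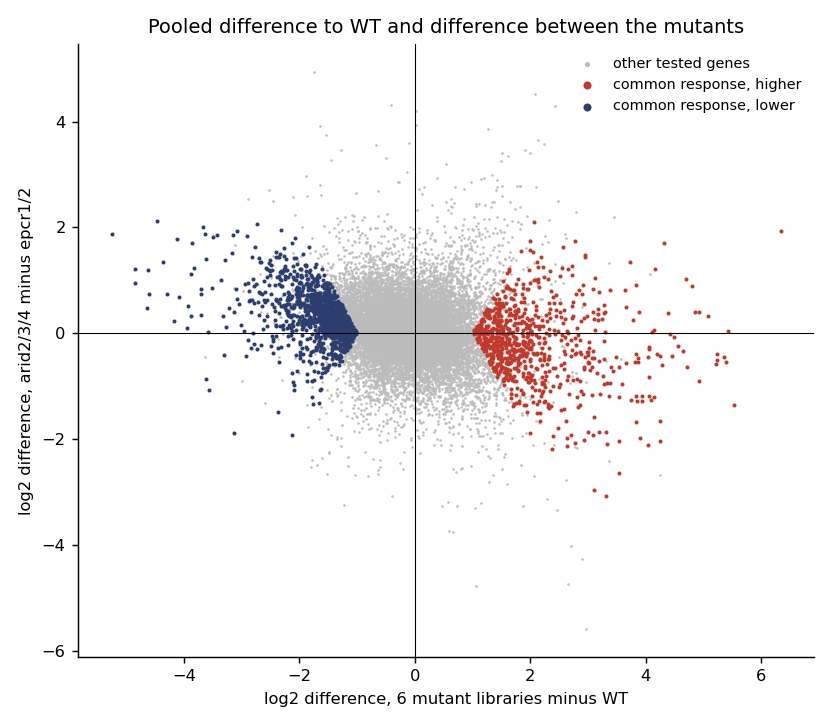
Each point is 1 of the 21168 tested genes. The x axis gives the log2 difference of the 6 mutant libraries minus WT, and the y axis the log2 difference of arid2/3/4 minus epcr1/2, both of log2(FPKM + 1). Red points are the 788 common-response genes higher in the mutants and blue points the 1104 lower. Their sloping edges are set by the rule that asks for 1 on the log2 scale in each mutant.

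The mutants were also set against each other, in a fit with 1 mean per genotype where the WT libraries add to the estimate of the spread. By that contrast (limma, adjusted p under 0.05) 2218 genes differed between arid2/3/4 and epcr1/2 (10.5%), and 182 of the 1892 common-response genes were among them (9.62%). The larger change was in epcr1/2 for 151 of the 182 and in arid2/3/4 for 31. In the averaged fit 49 of all tested genes differed between the mutants, and with the replicate block 6039 did. A gene that missed this test is not shown to respond alike in both mutants. The count of 2218 was 870 without arid2/3/4 replicate 1, 1007 without arid2/3/4 replicate 2, 843 without epcr1/2 replicate 1 and 834 without epcr1/2 replicate 2.

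The mutated genes check the labels. ARID2 had 2.12, 2.15 and 2.06 FPKM in arid2/3/4 and 18.6, 19.6 and 18.1 FPKM in epcr1/2, against 22.5, 20.1 and 22.5 FPKM in WT. ARID4 had 3.58, 3.13 and 4.28 FPKM in arid2/3/4 and 7.9, 8.12 and 8.73 FPKM in epcr1/2, against 11.4, 10.9 and 13.6 FPKM in WT. ARID3 had 3.6, 4.04 and 5.62 FPKM in arid2/3/4 and 6.97, 6.85 and 7 FPKM in epcr1/2, against 8.68, 8.22 and 8.65 FPKM in WT. In these 3 genes the arid2/3/4 libraries lay below all WT and epcr1/2 libraries. EPCR1 had 13.4, 12.6 and 18.3 FPKM in arid2/3/4 and 0.344, 0.514 and 1.08 FPKM in epcr1/2, against 11.8, 10.5 and 16.4 FPKM in WT, so that epcr1/2 stood far below both other genotypes. EPCR2 had 7.88, 7.14 and 12.6 FPKM in arid2/3/4 and 10.145, 10.4 and 12.02 FPKM in epcr1/2, against 8.36, 6.99 and 11.8 FPKM in WT, and its transcript was not lower in epcr1/2. A transcript level does not show whether the product is made. The pooled fit called none of these 5 genes, with log2 differences of -1.53 for ARID2 (limma adjusted p = 0.19) and -1.45 for EPCR1 (limma adjusted p = 0.317). Of all 14 PEAT genes on the list, none was called (0 higher and 5 lower at an unadjusted p under 0.05), and their median log2 difference was -0.36. For PEAT genes the count lower was 2 with the replicate block or from replicates 1 and 2 alone, 5 with 1 mean per genotype and 1 without arid2/3/4 replicate 3 or epcr1/2 replicate 3.

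The 12 largest common rises held 9 seed and LEA genes and the 12 largest common falls held 6 genes of lipid-transfer clusters, ranked by the size in the mutant that changed less. On the side of the rises stood the storage albumin genes SESA1, SESA2 and SESA3, the cruciferin genes CRA1 and CRU3, the late embryogenesis abundant (LEA) genes EM1, LEA18, LEA76 and AT3G02480, the cell cycle inhibitor gene SMR5, and AT1G68250 and AT5G44306, whose products are uncharacterized. On the side of the falls stood AT4G22485, AT4G22490, AT4G22505 and AT4G22517 of 1 lipid-transfer cluster, AT5G46890 and AT5G46900 of another, the germin gene GER3, the glutaredoxin gene AT2G47880, the thioredoxin gene WCRKC1, MLP328, AT3G05727 and AT3G15450. SESA1, SESA3, CRU3 and WCRKC1 were not called in the averaged fit, and SESA2 and SMR5 are taken up below. SESA1 and SESA3 were not called without WT replicate 1, 2 or 3, nor CRU3 without WT replicate 1. SESA3 was also not called without arid2/3/4 replicate 1 or 2 or epcr1/2 replicate 1 or 2. AT1G68250 had 50.99, 52.6 and 21.8 FPKM in arid2/3/4 and 54.9, 54.2 and 46.6 FPKM in epcr1/2, against 0.0824, 0.16 and 0.457 FPKM in WT. Its mutant libraries lay far above WT, with arid2/3/4 replicate 3 the lowest of them, with a log2 difference of 5.23 ± 0.29 (SE, limma adjusted p = 7.7e-05). Each WT library was under 0.5 FPKM, so the gene passed the filter through the mutants and had to differ. GER3, which encodes a germin-like protein of the cell wall, had 56.8, 62.8 and 12.1 FPKM in arid2/3/4 and 6.09, 6.48 and 17.3 FPKM in epcr1/2, against 936, 1201 and 334 FPKM in WT. The groups did not overlap, and the difference was -5.25 ± 0.80 (SE, limma adjusted p = 0.0028). AT3G15450, annotated as an aluminium-induced protein, had 10.3, 8.4 and 18.5 FPKM in arid2/3/4 and 5.76, 5.57 and 9.12 FPKM in epcr1/2, against 223, 246 and 133 FPKM in WT, a difference of -4.30 ± 0.35 (SE, limma adjusted p = 0.00025). It was low in all 6 mutant libraries. MLP328, of the major latex protein family, had 16.5, 10.8 and 2.56 FPKM in arid2/3/4 and 9.19, 8.18 and 0.851 FPKM in epcr1/2, against 129.9, 148 and 87.95 FPKM in WT, a difference of -4.08 ± 0.65 (SE, limma adjusted p = 0.00345).

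**Figure D2:**
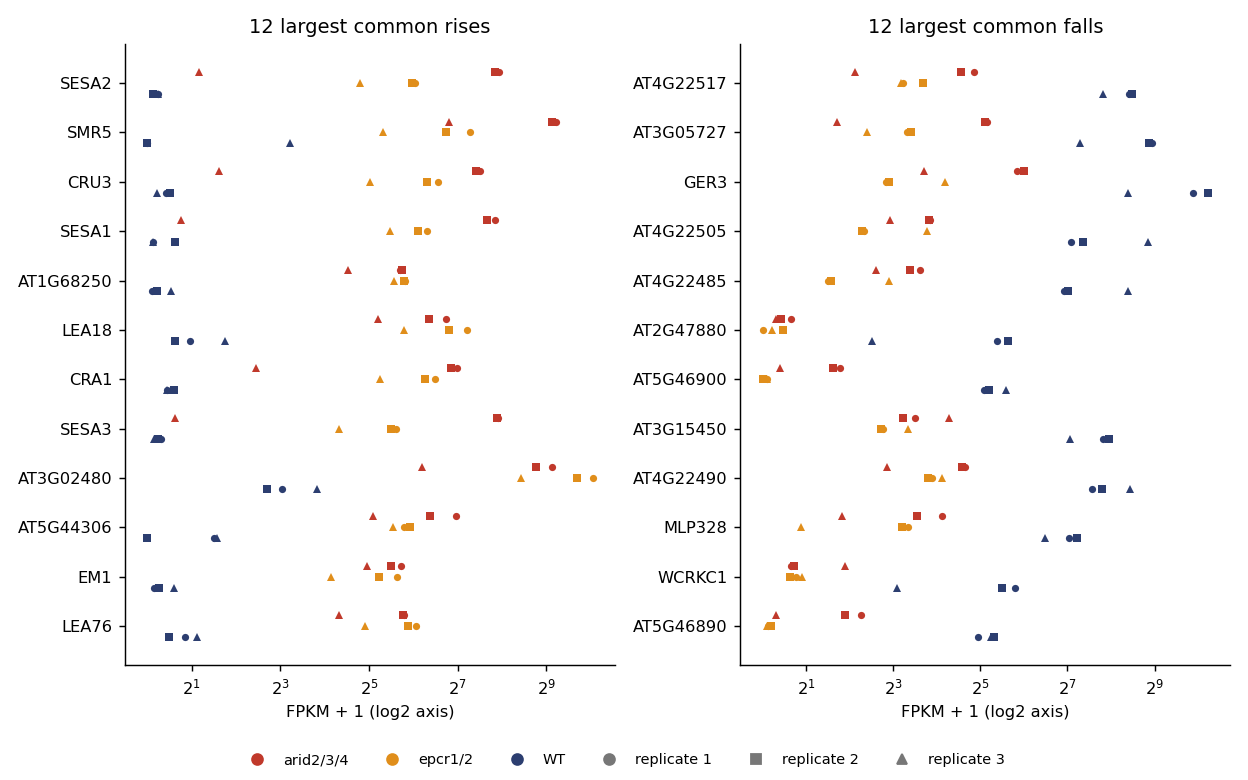
Values of the 12 largest common rises and the 12 largest common falls in each of the 9 libraries, as FPKM + 1 on a log2 axis. Colours mark arid2/3/4, epcr1/2 and WT, and symbols mark the replicate number. In each gene shown the 6 mutant libraries lie clear of the 3 WT libraries, and in the storage protein genes arid2/3/4 replicate 3 lies nearest to WT.

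Of 19 tested seed maturation genes, which are normally silent in seedlings, 15 were higher in the mutants and 13 of them belonged to the common response. They encode storage proteins, oil body proteins and protectants against drying, and their regulators in the embryo bind the RY element CATGCA. The promoters of a 2S albumin, a cruciferin and an oleosin gene are shown because the 3 rose in both mutants and hold that element. Each run is the 250 bases before the annotated start, from RefSeq TAIR10.1, 5′ to 3′ along the gene, with the RY core CATGCA or its reverse complement TGCATG in capitals.

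SESA2 (chr4:13609091-13609340, plus strand): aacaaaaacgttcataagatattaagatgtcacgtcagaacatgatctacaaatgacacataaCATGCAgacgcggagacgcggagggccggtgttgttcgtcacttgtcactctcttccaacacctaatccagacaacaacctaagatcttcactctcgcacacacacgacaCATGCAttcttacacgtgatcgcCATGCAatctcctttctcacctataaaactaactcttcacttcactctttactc
CRA1 (chr5:17758337-17758586, minus strand): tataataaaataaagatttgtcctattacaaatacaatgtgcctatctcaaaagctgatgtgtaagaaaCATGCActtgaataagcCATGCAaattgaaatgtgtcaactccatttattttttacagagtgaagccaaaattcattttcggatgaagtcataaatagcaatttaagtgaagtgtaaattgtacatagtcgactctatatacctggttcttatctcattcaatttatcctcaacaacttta
OLEO1 (chr4:12900180-12900429, plus strand): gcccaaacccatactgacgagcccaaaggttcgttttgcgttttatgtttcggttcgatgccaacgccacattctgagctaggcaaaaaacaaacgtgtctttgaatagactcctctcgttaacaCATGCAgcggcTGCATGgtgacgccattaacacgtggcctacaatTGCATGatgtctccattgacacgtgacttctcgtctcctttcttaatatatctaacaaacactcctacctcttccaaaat

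An RY core on either strand was found 3 times before SESA2, 2 times before CRA1 and 3 times before OLEO1. It was present in 12 of 19 promoters of the tested seed maturation genes (63.2%), in 14.2% of the 788 common rises, in 11.8% of the 1104 common falls and in 8.01% of all 21167 promoters of tested genes. In other lists searched, the RY core was present in 30.0% of 10 heat shock, 28.6% of 14 flavonoid and 4.35% of 23 jasmonate promoters. The G-box CACGTG was present in 42.1% of the seed maturation promoters. These shares describe letters in a window, and no binding was measured.

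SESA2 had 242, 230.0 and 1.23 FPKM in arid2/3/4 and 64.4, 62.1 and 26.9 FPKM in epcr1/2, against 0.174, 0.0996 and 0.188 FPKM in WT. The arid2/3/4 libraries numbered 1 and 2 were the highest and arid2/3/4 replicate 3 the lowest of the mutants, yet all 6 lay above WT, and the difference was 5.42 ± 1.29 (SE, limma adjusted p = 0.0183). CRA1, a 12S globulin gene, had 125, 114 and 4.44 FPKM in arid2/3/4 and 88.7, 75.8 and 37.01 FPKM in epcr1/2, against 0.355, 0.521 and 0.37 FPKM in WT, with the same order of libraries and a difference of 5.21 ± 0.89 (SE, limma adjusted p = 0.00462). OLEO1, whose product coats oil bodies and which was chosen after its values were seen, had 62.3, 56.3 and 3.22 FPKM in arid2/3/4 and 31.5, 26.4 and 18.98 FPKM in epcr1/2, against 0.297, 0.0684 and 0.0472 FPKM in WT, a difference of 4.49 ± 0.75 (SE, limma adjusted p = 0.00406). In these 3 genes arid2/3/4 replicate 3 was the lowest mutant library. EM1, a LEA gene of the dry seed, had 52.1, 44.1 and 30.2 FPKM in arid2/3/4 and 48.7, 36.5 and 16.6 FPKM in epcr1/2, against 0.115, 0.199 and 0.526 FPKM in WT. Its 6 mutant libraries were all high, and the difference was 4.86 ± 0.33 (SE, limma adjusted p = 0.000132). LEA18 had 105, 81.1 and 35.5 FPKM in arid2/3/4 and 148, 111 and 54.2 FPKM in epcr1/2, against 0.953, 0.541 and 2.35 FPKM in WT, a difference of 5.24 ± 0.44 (SE, limma adjusted p = 0.00025), and AT3G02480, also of the LEA family, had 559, 436 and 71.8 FPKM in arid2/3/4 and 1059, 827 and 346 FPKM in epcr1/2, against 7.14, 5.5 and 13.2 FPKM in WT, a difference of 5.53 ± 0.74 (SE, limma adjusted p = 0.00164). Among the regulators, ABI3, which activates storage protein genes in the embryo and was chosen after its values were seen, stood at 0.42 to 0.891 FPKM in the 6 mutant libraries (median 0.529), against 0.0236, 0.0548 and 0.0358 FPKM in WT, a difference of 0.61 ± 0.13 (SE, limma adjusted p = 0.011). It was higher in all mutant libraries, at a low level.

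Of the 21 seed maturation genes on the list 19 were tested, with LEC1 and LEC2 below the filter, and 15 were called higher and none lower (1 lower at an unadjusted p under 0.05). Their median log2 difference was 3.88, against -0.08 for all tested genes, and it was 4.88 in replicates 1 and 2 and 2.31 in replicate 3. In 12 of the 19 all WT libraries were under 0.5 FPKM, so they passed the filter through the mutants and had to differ. Summed over the list, the mutants reached 92.7 to 1529 FPKM, with a median of 613, against 8.01 to 10.0 FPKM in WT. By annotation 72 tested genes were LEA genes, of which 26 were called higher (36.1%) and 8 lower (11.1%), and 12 were oleosin genes, of which 6 were called higher and 1 lower. Of all tested genes 8.03% were called higher and 12.7% lower. Some called members of these families, such as AT2G42560 and OLEO1, were under 0.5 FPKM in WT. Those passed the filter through the mutants and had to differ. For seed maturation the count higher was 7 in the averaged fit, 7 without WT replicate 1 and 9 without WT replicate 2. SESA2 (4.75) and ABI3 (0.58) were not called in the averaged fit. SESA2 (5.38 to 5.44) was not called without WT replicate 1, 2 or 3. ABI3 (0.60) was not called without WT replicate 1.

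Of 14 tested flavonoid genes 10 were higher in the mutants, anthocyanin enzymes among them, and all 10 belonged to the common response. Anthocyanins are red pigments made from phenylalanine by way of chalcone synthase (CHS), and MYB and bHLH factors switch on the late steps. DFR, dihydroflavonol reductase at the entry to the anthocyanin branch, had 199, 176 and 200.3 FPKM in arid2/3/4 and 221, 215 and 414 FPKM in epcr1/2, against 25.1, 23.1 and 19.8 FPKM in WT. All 6 mutant libraries were high, epcr1/2 replicate 3 most of all, and the difference was 3.28 ± 0.26 (SE, limma adjusted p = 0.000228). LDOX, the next enzyme, had 169, 164 and 114 FPKM in arid2/3/4 and 186, 183 and 241 FPKM in epcr1/2, against 23.9, 25.9 and 15.9 FPKM in WT, a difference of 2.95 ± 0.24 (SE, limma adjusted p = 0.00025). UF3GT, a glycosyltransferase that decorates anthocyanins, had 49.1, 44.6 and 28.4 FPKM in arid2/3/4 and 49.2, 45.3 and 59.95 FPKM in epcr1/2, against 4.88, 6.41 and 3.42 FPKM in WT, a difference of 2.995 ± 0.24 (SE, limma adjusted p = 0.00025). In these 3 genes all mutant libraries lay above all WT libraries. TT8, a bHLH regulator of DFR, was 6.61 to 10.9 FPKM in the 6 mutant libraries (median 8.57), against 1.42, 0.915 and 0.806 FPKM in WT, a difference of 2.24 ± 0.18 (SE, limma adjusted p = 0.000249). PAP1, a MYB activator of the pathway, had 105, 87.4 and 21.6 FPKM in arid2/3/4 and 23.4, 25.7 and 15.2 FPKM in epcr1/2, against 4.73, 3.41 and 3.14 FPKM in WT, a difference of 2.94 ± 0.60 (SE, limma adjusted p = 0.00959), with the highest values in arid2/3/4 replicates 1 and 2. CHS, at the start of the pathway, was 324 to 631 FPKM in the 6 mutant libraries (median 387), against 154, 201 and 170.0 FPKM in WT, a difference of 1.21 ± 0.23 (SE, limma adjusted p = 0.00705). MYB111, an activator of flavonol synthesis, was 0.435 to 2.94 FPKM in the 6 mutant libraries (median 1.27), against 4.92, 5.17 and 2.81 FPKM in WT, a difference of -1.24 ± 0.32 (SE, limma adjusted p = 0.0248), and its groups overlapped. TT8, CHS and MYB111 were chosen after their values were seen.

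Besides the 10 called higher, 1 of the 14 flavonoid genes was lower, MYB111. The median log2 difference was 1.51, and it was 1.45 in replicates 1 and 2 and 1.58 in replicate 3. For flavonoid genes the count higher was 6 in the averaged fit. For flavonoid genes the count lower was 0 in the averaged fit, 3 with the replicate block, with a batch term or from replicates 1 and 2 alone, 0 without WT replicate 1 or 2 and 2 without WT replicate 3. PAP1 (2.76), CHS (1.28) and MYB111 (-1.0) were not called in the averaged fit. MYB111 (-1.14 to -1.11) was not called without WT replicate 1 or 2.

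The promoters of DFR and of the cell cycle inhibitor gene SMR5 are shown for the G-box CACGTG, in capitals, which both hold. The build, the window and the orientation are as above.

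DFR (chr5:17166033-17166282, minus strand): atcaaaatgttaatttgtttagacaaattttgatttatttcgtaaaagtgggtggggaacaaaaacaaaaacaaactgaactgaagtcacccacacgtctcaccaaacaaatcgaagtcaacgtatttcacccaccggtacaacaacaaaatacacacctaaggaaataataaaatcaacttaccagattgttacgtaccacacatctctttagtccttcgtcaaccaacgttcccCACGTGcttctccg
SMR5 (chr1:2305032-2305281, minus strand): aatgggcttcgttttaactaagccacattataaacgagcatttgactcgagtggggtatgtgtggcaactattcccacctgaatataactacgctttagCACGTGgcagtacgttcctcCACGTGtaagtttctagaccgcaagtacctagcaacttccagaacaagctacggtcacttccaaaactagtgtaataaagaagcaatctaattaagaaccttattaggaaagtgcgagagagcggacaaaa

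A G-box stood in 15.5% of the 788 promoters of common rises, in 7.52% of the 1104 of common falls and in 7.46% of all 21167. It was present in 42.9% of the 14 flavonoid promoters. The heat shock element GAANNTTC, searched on both strands like the others, was present in 10.5% of the rises, 7.61% of the falls and 9.32% of all. No test was made of these shares.

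The cell cycle inhibitor genes SMR5 and SMR7 and several genes of the response to DNA damage were higher in both mutants. In plants that response runs through the transcription factor SOG1, which activates repair genes and inhibitors of cyclin-dependent kinases of the SIAMESE-RELATED (SMR) family. SMR5 had 592, 561 and 111 FPKM in arid2/3/4 and 154, 106 and 38.9 FPKM in epcr1/2, against 0, 0 and 8.35 FPKM in WT. It was listed at 0 in WT replicates 1 and 2, and the 6 mutant libraries lay above all WT libraries, with a difference of 6.34 ± 0.996 (SE, limma adjusted p = 0.00323). SMR7, of the same family, had 38.5, 35.7 and 70.6 FPKM in arid2/3/4 and 21.01, 16.7 and 48.5 FPKM in epcr1/2, against 1.86, 1.3 and 5.03 FPKM in WT, a difference of 3.38 ± 0.47 (SE, limma adjusted p = 0.00183). GMI1, which acts in repair by recombination, had 12.5, 10.96 and 23.1 FPKM in arid2/3/4 and 12.02, 13.2 and 21.3 FPKM in epcr1/2, against 1.78, 1.51 and 1.84 FPKM in WT, a difference of 2.55 ± 0.26 (SE, limma adjusted p = 0.000486). The 3 genes were above WT in both mutants at each replicate number. PARP2, a poly(ADP-ribose) polymerase gene of DNA repair, was 13.5 to 22.9 FPKM in the 6 mutant libraries (median 16.4), against 4.2, 4 and 6.79 FPKM in WT, a difference of 1.62 ± 0.22 (SE, limma adjusted p = 0.00191). Among NAC transcription factor genes tied to DNA damage, NAC044 had 14.2, 12.8 and 14.3 FPKM in arid2/3/4 and 32.8, 31.4 and 33.5 FPKM in epcr1/2, against 0.998, 1.49 and 1.05 FPKM in WT, and NAC085 had 4.23, 3.65 and 6.56 FPKM in arid2/3/4 and 4.23, 3.63 and 6.73 FPKM in epcr1/2, against 0, 0.0936 and 0.0979 FPKM in WT. NAC044 was near 1 FPKM in WT and highest in epcr1/2, while NAC085 was at most 0.0979 FPKM in WT and alike in level in both mutants. Their differences were 3.36 ± 0.36 (SE, limma adjusted p = 0.000648) and 2.42 ± 0.21 (SE, limma adjusted p = 0.000267). NAC085 passed the filter through the mutants, with each WT library under 0.5 FPKM, and had to differ. NAC103 was 10.5 to 15.8 FPKM in the 6 mutant libraries (median 13.2), against 1.8, 1.84 and 0.88 FPKM in WT, a difference of 2.54 ± 0.20 (SE, limma adjusted p = 0.000209). CYCB1;1, a mitotic cyclin gene that DNA damage is known to raise, was 10.5 to 16.4 FPKM in the 6 mutant libraries (median 12.9), against 6.05, 5.33 and 6.16 FPKM in WT, a difference of 1.07 ± 0.17 (SE, limma adjusted p = 0.00316). SIM, the founding member of the SMR family, was 23.1 to 27.1 FPKM in the 6 mutant libraries (median 24.7), against 39.2, 35.4 and 40.3 FPKM in WT, a difference of -0.60 ± 0.12 (SE, limma adjusted p = 0.00813). NAC044, NAC085, NAC103, CYCB1;1 and SIM were chosen after their values were seen.

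On the whole list of 22 cell cycle and DNA damage genes 6 were called higher and 1 lower, with a median of -0.01 that joined -0.37 in arid2/3/4 and 0.42 in epcr1/2, and 7 of the 22 differed between the mutants. Among the 6 were SMR5, SMR7, GMI1, PARP2 and CYCB1;1, and the 1 lower was SIM. The other 15 were not called. SOG1 itself, chosen after its values were seen, had a log2 difference of -0.60 (limma adjusted p = 0.134). It was called lower with the replicate block, with a batch term or from replicates 1 and 2 alone. For cell cycle genes the count higher was 3 in the averaged fit. For cell cycle genes the count lower was 0 in the averaged fit, 2 from replicates 1 and 2 alone, 3 with the replicate block or with a batch term, 5 with 1 mean per genotype and 2 without epcr1/2 replicate 1. SMR5 (5.47), CYCB1;1 (1.01) and SIM (-0.59) were not called in the averaged fit.

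**Figure D3:**
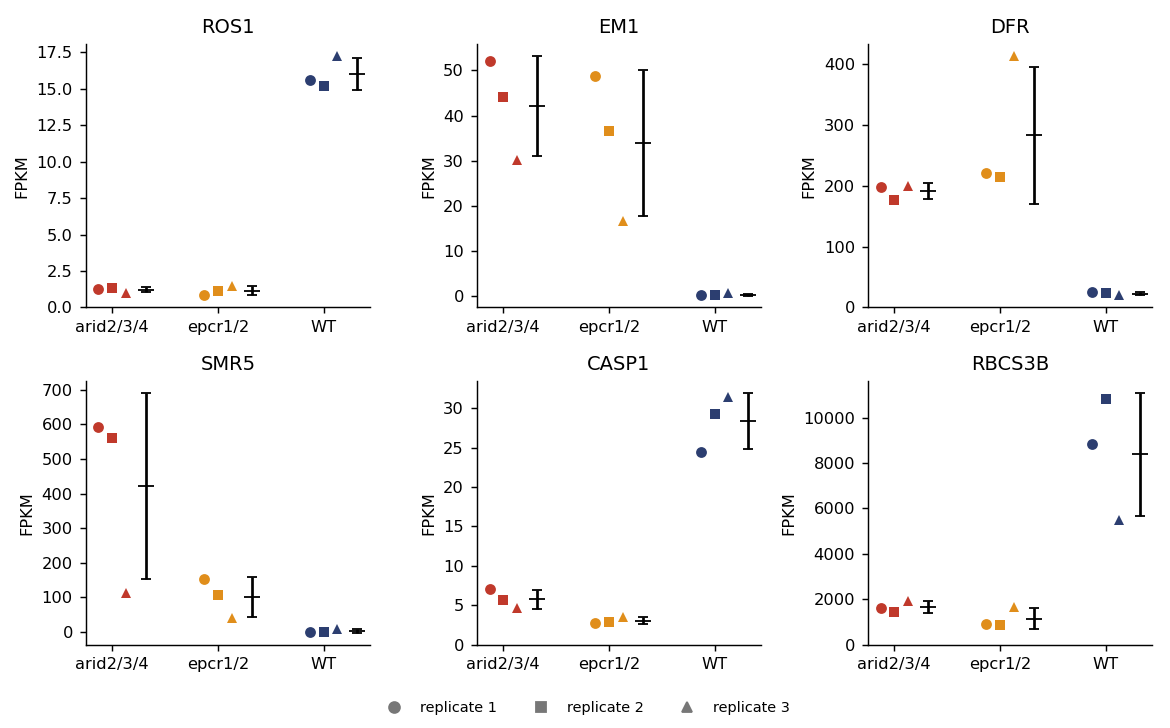
FPKM of 6 genes in each of the 9 libraries, with the mean and SD of each genotype (n = 3) beside its points. ROS1, CASP1 and RBCS3B are lower in all 6 mutant libraries than in WT, and EM1, DFR and SMR5 are higher. The y axis differs between the panels.

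Of 23 jasmonate and wounding genes 11 were higher in the mutants. Jasmonate, the wound hormone, is made from lipoxygenase products, and its JAZ repressors are themselves induced by it. CORI3, a transaminase-family gene and a marker of jasmonate action, had 797, 789.9 and 391 FPKM in arid2/3/4 and 763, 819 and 2244 FPKM in epcr1/2, against 45.8, 49.9 and 51.9 FPKM in WT. All mutant libraries were far above WT and epcr1/2 replicate 3 was the highest, with a difference of 4.06 ± 0.44 (SE, limma adjusted p = 0.000674). LOX4, a lipoxygenase of jasmonate synthesis, was 4.15 to 20.6 FPKM in the 6 mutant libraries (median 15.5), against 2.53, 2.69 and 0.966 FPKM in WT, a difference of 2.17 ± 0.47 (SE, limma adjusted p = 0.0122). The repressor gene JAZ5 was 6.58 to 18.8 FPKM in the 6 mutant libraries (median 10.7), against 0.801, 1.39 and 2.09 FPKM in WT, a difference of 2.42 ± 0.34 (SE, limma adjusted p = 0.00192), and JAZ1 was 27.4 to 50.7 FPKM in the 6 mutant libraries (median 48.7), against 14.02, 13.1 and 7.09 FPKM in WT, a difference of 1.86 ± 0.26 (SE, limma adjusted p = 0.00214). In both the groups did not overlap. None of the 23 was called lower (0 at an unadjusted p under 0.05), and 10 of the 11 belonged to the common response. In 1 of the 23 all WT libraries were under 0.5 FPKM. The median was 1.22. For jasmonate genes the count higher was 6 in the averaged fit, 17 with a batch term and 7 without WT replicate 1 or 2. For jasmonate genes the count lower was 1 from replicates 1 and 2 alone.

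Of 10 tested heat shock genes, which encode chaperones of unfolded protein, 7 were higher in the mutants. HSP18.2, a small cytosolic chaperone gene, had 44.1, 41.9 and 24.1 FPKM in arid2/3/4 and 41.9, 38.2 and 34.1 FPKM in epcr1/2, against 4.42, 3.4 and 5.95 FPKM in WT, a difference of 2.78 ± 0.22 (SE, limma adjusted p = 0.000249). HSP17.4 was 4.06 to 13.7 FPKM in the 6 mutant libraries (median 8.52), against 1.17, 0.262 and 1.15 FPKM in WT, a difference of 2.31 ± 0.35 (SE, limma adjusted p = 0.00273). The mutant libraries of both genes lay above WT throughout. HSP90.1 was 18.3 to 76.3 FPKM in the 6 mutant libraries (median 53.4), against 9.45, 8.7 and 14.3 FPKM in WT, a difference of 1.998 ± 0.44 (SE, limma adjusted p = 0.0134). In 3 of the 10 all WT libraries were under 0.5 FPKM, so they passed the filter through the mutants and had to differ. None of the 10 was lower (0 at an unadjusted p under 0.05), and the median of 2.02 was 2.61 in replicates 1 and 2 and 0.93 in replicate 3. For heat shock the count higher was 2 in the averaged fit and 3 without WT replicate 1 or 2. HSP90.1 (1.66) was not called in the averaged fit. HSP90.1 (1.87 to 1.92) was not called without WT replicate 1 or 2.

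Genes of abscisic acid (21.1% called higher) and salicylic acid (20%) gave smaller shares than the jasmonate (47.8%) and heat shock (70%) lists. Both shares were above the 8.03% of all tested genes. The shares called lower, 5.26% and 0%, were below the 12.7% of all tested genes. RD29B, which drying and abscisic acid induce, had 84.2, 74.5 and 50.9 FPKM in arid2/3/4 and 32.8, 31.00 and 17.8 FPKM in epcr1/2, against 0.844, 0.647 and 10.9 FPKM in WT. The mutants lay above WT, whose replicate 3 was itself raised, and the difference was 3.72 ± 0.69 (SE, limma adjusted p = 0.00624). RD22, another dehydration gene, was 456 to 844 FPKM in the 6 mutant libraries (median 550.4), against 153, 156 and 254 FPKM in WT, a difference of 1.71 ± 0.28 (SE, limma adjusted p = 0.00366). Of 19 abscisic acid, cold and drought genes 4 were called higher and 1 lower, with a median of 0.66 that was 1.17 in replicates 1 and 2 and -0.16 in replicate 3. For abscisic acid the count higher was 0 in the averaged fit, 10 from replicates 1 and 2 alone and 2 without WT replicate 1 or 2. For abscisic acid the count lower was 0 in the averaged fit, 0 with the replicate block or with no filter, 3 from replicates 1 and 2 alone and 0 without arid2/3/4 replicate 1 or 2, epcr1/2 replicate 1 or 2 or WT replicate 1 or 2. PR2, a glucanase gene of salicylic acid defence, had 281, 284 and 97.1 FPKM in arid2/3/4 and 73.8, 68.6 and 115 FPKM in epcr1/2, against 29.5, 36.3 and 8.49 FPKM in WT, a difference of 2.55 ± 0.60 (SE, limma adjusted p = 0.0169). EDS5, the transporter of salicylic acid synthesis, was 8.58 to 19.9 FPKM in the 6 mutant libraries (median 10.7), against 5.22, 4.79 and 3.16 FPKM in WT, a difference of 1.35 ± 0.29 (SE, limma adjusted p = 0.012). Of 20 salicylic acid and immunity genes 4 were called higher and none lower (0 at an unadjusted p under 0.05), and the median of 0.65 was 0.18 in replicates 1 and 2 and 1.43 in replicate 3. For salicylic acid the count higher was 1 in the averaged fit and 2 without WT replicate 3. For salicylic acid the count lower was 1 with a batch term, 2 from replicates 1 and 2 alone and 1 without WT replicate 3. RD29B (3.13), RD22 (1.53), PR2 (2.78) and EDS5 (1.36) were not called in the averaged fit. PR2 (1.94 to 2.08) was not called without WT replicate 3 or from replicates 1 and 2 alone.

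Of 16 genes of glucosinolate synthesis 5 were higher in the mutants, 2 of them in the common response, and 11 were not called. The myrosinase genes TGG1 and TGG2 were lower. Glucosinolates are sulfur-rich defence compounds, and myrosinases release toxic products from them. CYP83B1, of indole glucosinolate synthesis, had 216, 211 and 271 FPKM in arid2/3/4 and 344, 331 and 531 FPKM in epcr1/2, against 95.5, 102 and 98.5 FPKM in WT, a difference of 1.60 ± 0.29 (SE, limma adjusted p = 0.00545). SOT17, a sulfotransferase gene of the last step of the core, was 45.3 to 79.4 FPKM in the 6 mutant libraries (median 53.9), against 21.9, 24.7 and 29.7 FPKM in WT, a difference of 1.1 ± 0.19 (SE, limma adjusted p = 0.00506). Both lay above WT in all mutant libraries. The myrosinase gene TGG1 had 394, 358 and 378 FPKM in arid2/3/4 and 166, 169 and 232 FPKM in epcr1/2, against 1605, 1429 and 1012 FPKM in WT, a difference of -2.31 ± 0.35 (SE, limma adjusted p = 0.00291). TGG2 had 138, 127 and 68.99 FPKM in arid2/3/4 and 44.7, 42.1 and 73.5 FPKM in epcr1/2, against 555, 533 and 486 FPKM in WT, a difference of -2.80 ± 0.39 (SE, limma adjusted p = 0.00188). Both myrosinase genes, chosen after their values were seen, were low in all 6 mutant libraries. None of the 16 synthesis genes was called lower (0 at an unadjusted p under 0.05), with a median of 0.63. For glucosinolate genes the count higher was 1 in the averaged fit and 8 with a batch term, with 1 mean per genotype or from replicates 1 and 2 alone. For glucosinolate genes the count lower was 1 from replicates 1 and 2 alone. CYP83B1 (1.68) was not called in the averaged fit.

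Of 25 light harvesting and Rubisco genes 16 were lower in the mutants, and 12 of 18 genes of plastid ribosomal proteins were. The photosynthesis genes encode antenna proteins that gather light, subunits of both photosystems and the small subunit of Rubisco, the enzyme of carbon fixation. RBCS3B, a Rubisco small subunit gene, had 1593, 1436 and 1922 FPKM in arid2/3/4 and 906, 859 and 1665 FPKM in epcr1/2, against 8833, 10832 and 5468 FPKM in WT. Both mutants were low at each replicate number, WT replicate 3 was the lowest of WT, and the difference was -2.59 ± 0.40 (SE, limma adjusted p = 0.00312). LHCB5, an antenna protein gene of photosystem II, had 836, 768 and 1633 FPKM in arid2/3/4 and 822, 811 and 982 FPKM in epcr1/2, against 3253, 3304 and 2735 FPKM in WT, a difference of -1.72 ± 0.31 (SE, limma adjusted p = 0.00556), with arid2/3/4 replicate 3 the highest mutant library. The plastid ribosomal protein gene RPL21C had 115, 113 and 131 FPKM in arid2/3/4 and 64.4, 66.1 and 109 FPKM in epcr1/2, against 518, 546 and 317 FPKM in WT, a difference of -2.21 ± 0.29 (SE, limma adjusted p = 0.00151). RPL4, of the same ribosome, was 72.3 to 183 FPKM in the 6 mutant libraries (median 134), against 529, 519 and 390.5 FPKM in WT, a difference of -2.005 ± 0.32 (SE, limma adjusted p = 0.00347). RPL21C and RPL4 were chosen after their values were seen, and in both the groups did not overlap. None of the 25 was higher (0 at an unadjusted p under 0.05), and the median of -1.43 was -1.73 in replicates 1 and 2 and -0.91 in replicate 3. Reads may be split among near-identical Rubisco and antenna copies. For light harvesting the count lower was 2 in the averaged fit, 9 after quantile normalization, 10 with no filter, 3 without WT replicate 2, 5 without WT replicate 1, 7 without WT replicate 3 and 9 without arid2/3/4 replicate 1 or 2 or epcr1/2 replicate 1 or 2. RBCS3B (-2.35), LHCB5 (-1.56) and RPL4 (-1.82) were not called in the averaged fit.

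The wider families, defined by words in the annotation, held more such genes. Their shares stand beside 8.03% higher and 12.7% lower among all tested genes. Of 68 photosystem and light-harvesting genes 33 were called lower (48.5%) and none higher (2 at an unadjusted p under 0.05). Of 18 plastid ribosomal protein genes 12 were called lower (66.7%) and none higher (0 at an unadjusted p under 0.05), with a median of -1.69. Of 13 mitochondrial ribosomal protein genes none was called (2 higher and 1 lower at an unadjusted p under 0.05), with a median of -0.01. Of 294 other ribosomal protein genes 8 were called higher (2.72%) and 21 lower (7.14%), with a median of -0.01, and this group holds genes whose names do not state the compartment. Summed over the light harvesting and Rubisco list, the mutants ran from 28388 to 62280 FPKM, against 94350 to 108314 FPKM in WT. In whole seedlings, fewer cells of a type and less RNA per cell cannot be told apart.

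Of 18 tested root markers 9 were lower in the mutants. CASP1, which builds the Casparian strip of the endodermis, had 7.03, 5.66 and 4.62 FPKM in arid2/3/4 and 2.77, 2.84 and 3.52 FPKM in epcr1/2, against 24.4, 29.3 and 31.5 FPKM in WT. Each mutant library lay below WT, epcr1/2 lowest, and the difference was -2.49 ± 0.26 (SE, limma adjusted p = 0.000604). CASP2 had 1.46, 1.61 and 1.92 FPKM in arid2/3/4 and 0.589, 0.264 and 1.33 FPKM in epcr1/2, against 5.84, 6.55 and 14.5 FPKM in WT, a difference of -2.14 ± 0.34 (SE, limma adjusted p = 0.00356). Both genes lay below WT in all mutant libraries. GL2, a homeobox gene that patterns root hairs and trichomes, was 0.958 to 2.35 FPKM in the 6 mutant libraries (median 1.88), against 6.56, 6.75 and 8.31 FPKM in WT, a difference of -1.56 ± 0.19 (SE, limma adjusted p = 0.0011). PIN2, which carries auxin out of cells of the root tip, had 1.97, 1.81 and 1.4 FPKM in arid2/3/4 and 0.487, 0.544 and 0.341 FPKM in epcr1/2, against 8.9, 8.87 and 8.59 FPKM in WT, a difference of -2.30 ± 0.29 (SE, limma adjusted p = 0.00117). EXP7, an expansin of root hairs chosen after its values were seen, was 0.334 to 3.34 FPKM in the 6 mutant libraries (median 0.695), against 7.73, 7.14 and 5.09 FPKM in WT, a difference of -1.81 ± 0.40 (SE, limma adjusted p = 0.0131). None of the 18 was called higher (0 at an unadjusted p under 0.05). Their median was -1.04, and it was -1.09 in replicates 1 and 2 and -1.12 in replicate 3. Summed over the list, the mutants ran from 164 to 268 FPKM, against 292 to 399 FPKM in WT. Of 58 peroxidase genes, a family with many root members, 20 were called lower (34.5%) and 8 higher (13.8%), and of 23 expansin genes 8 were lower and 4 higher. Whether the mutants held less root tissue per seedling was not tested. For root markers the count higher was 1 with 1 mean per genotype. EXP7 (-1.83) was not called in the averaged fit. EXP7 (-1.77 to -1.71) was not called without WT replicate 1 or 2 or from replicates 1 and 2 alone.

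Of 13 tested cytokinin genes 5 were called lower (38.5%), while the auxin list (13.6%) and the gibberellin and ethylene list (14.3%) lay near the 12.7% of all tested genes. LOG1, which makes active cytokinin, had 3.89, 3.01 and 5.52 FPKM in arid2/3/4 and 2.56, 2.99 and 5.85 FPKM in epcr1/2, against 26.8, 23.4 and 32.9 FPKM in WT, a difference of -2.56 ± 0.25 (SE, limma adjusted p = 0.000415), and was low in all 6 mutant libraries. ARR4, a type-A response regulator that cytokinin induces, was 25.9 to 37.7 FPKM in the 6 mutant libraries (median 29.4), against 83.2, 57.9 and 70.2 FPKM in WT, a difference of -1.17 ± 0.18 (SE, limma adjusted p = 0.00278). No cytokinin gene was called higher (0 at an unadjusted p under 0.05), and the median was -0.84. For cytokinin genes the count lower was 3 with the filter at 2 FPKM, 9 with the replicate block, with a batch term or from replicates 1 and 2 alone and 3 without WT replicate 1, 2 or 3. For cytokinin genes the count higher was 1 from replicates 1 and 2 alone. Of 22 tested auxin genes 3 were called lower, PIN2 among them, and 1 higher, with a median of -0.47. For auxin genes the count lower was 5 with 1 mean per genotype, 8 with the replicate block, 10 with a batch term or from replicates 1 and 2 alone, 1 without WT replicate 1, 2 or 3 and 7 without arid2/3/4 replicate 3. For auxin genes the count higher was 0 in the averaged fit, 2 from replicates 1 and 2 alone, 0 without WT replicate 1 or 2 and 2 without WT replicate 3. GA2OX2, which inactivates gibberellin, had 5.34, 4.61 and 10.7 FPKM in arid2/3/4 and 12.9, 13.1 and 12.3 FPKM in epcr1/2, against 1.54, 1.7 and 1.35 FPKM in WT, a difference of 2.002 ± 0.34 (SE, limma adjusted p = 0.00421). Of 14 tested gibberellin and ethylene synthesis genes 1 was called higher, GA2OX2, and 2 lower. For gibberellin genes the count higher was 2 with a pseudocount of 0.1 or from replicates 1 and 2 alone, 3 with the replicate block or with a batch term and 3 without arid2/3/4 replicate 3. For gibberellin genes the count lower was 1 in the averaged fit, 1 with a pseudocount of 0.1 or with the filter at 2 FPKM, 0 without epcr1/2 replicate 2 or WT replicate 1, 2 or 3 and 1 without arid2/3/4 replicate 1 or 2 or epcr1/2 replicate 1.

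Among genes of DNA methylation, the DNA demethylase gene ROS1 was lower in both mutants. ROS1 removes 5-methylcytosine, and its transcript is known to fall where methylation of its promoter is lost. ROS1 had 1.24, 1.36 and 1.02 FPKM in arid2/3/4 and 0.859, 1.14 and 1.47 FPKM in epcr1/2, against 15.6, 15.2 and 17.2 FPKM in WT. The 6 mutant libraries were alike and all low, and the difference was -2.97 ± 0.15 (SE, limma adjusted p = 5.79e-05), with -2.95 in arid2/3/4 and -2.99 in epcr1/2. DML2, a related demethylase gene, had 2, 1.99 and 2.27 FPKM in arid2/3/4 and 1.43, 1.6 and 1.79 FPKM in epcr1/2, against 6.57, 5.85 and 4.69 FPKM in WT, a difference of -1.23 ± 0.16 (SE, limma adjusted p = 0.00141). IDM2, a partner of the demethylation pathway, had 0.0963, 0 and 0.0257 FPKM in arid2/3/4 and 0.181, 0.174 and 0.0749 FPKM in epcr1/2, against 1.2, 1.15 and 1.5 FPKM in WT, a difference of -1.06 ± 0.12 (SE, limma adjusted p = 0.000731). The groups did not overlap in any of these 3 genes. IDM2 was under 0.5 FPKM in all 6 mutant libraries, so it passed the filter through WT and had to differ. Of 6 demethylation genes 3 were called lower and none higher (0 at an unadjusted p under 0.05), with a median of -1.03. For demethylation genes the count lower was 5 with a batch term. In RNA-directed DNA methylation (RdDM), where RNA polymerase V transcripts guide methylation, DRD1, a chromatin remodeller, had 1.39, 1.17 and 1.52 FPKM in arid2/3/4 and 2.26, 1.84 and 1.73 FPKM in epcr1/2, against 5.36, 4.71 and 5.18 FPKM in WT, a difference of -1.21 ± 0.16 (SE, limma adjusted p = 0.00168). NRPD1B, annotated as nuclear RNA polymerase D1B and known as the largest subunit of polymerase V, had 1.03, 1.02 and 1.95 FPKM in arid2/3/4 and 0.763, 1.06 and 0.929 FPKM in epcr1/2, against 4.04, 3.15 and 3.79 FPKM in WT, a difference of -1.15 ± 0.18 (SE, limma adjusted p = 0.00347). DMS3, which works with DRD1, was 2.55 to 3.8 FPKM in the 6 mutant libraries (median 3.01), against 6.46, 5.35 and 6.3 FPKM in WT, a difference of -0.80 ± 0.16 (SE, limma adjusted p = 0.0078). The products of these 3 genes act together, and for each of the 3 all mutant libraries lay below WT. Other members of the list were called higher, as counted next, and none of those is shown. Of 28 DNA methylation and RdDM genes 6 were called lower (21.4%) and 3 higher (10.7%), against 12.7% and 8.03% of all tested genes. Their median was -0.19, and 8 of the 28 differed between the mutants. For methylation genes the count lower was 1 in the averaged fit and 3 without WT replicate 1, 2 or 3. For methylation genes the count higher was 0 in the averaged fit, 0 without arid2/3/4 replicate 1 or 2 or WT replicate 1, 2 or 3 and 1 without epcr1/2 replicate 1 or 2.

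NRPD1B (-1.11) and DMS3 (-0.77) were not called in the averaged fit. Of 15 tested histone deacetylase genes 2 were called higher (13.3%) and 3 lower (20%), against 8.03% and 12.7% of all tested genes. Their median was 0.17, and 2 of the 15 differed between the mutants. None of the called members, which are not shown, belonged to the common response. HDA6, which acts in heterochromatin, was not called with a difference of 0.37 (limma adjusted p = 0.1), nor was HDA19 with 0.25 (limma adjusted p = 0.146), both chosen after their values were seen. In both genes all mutant libraries lay above WT. HDA6 was called higher with a batch term or with 1 mean per genotype. HDA19 was called higher with a batch term or from replicates 1 and 2 alone. For deacetylase genes the count higher was 0 in the averaged fit, 5 with a batch term, 0 without WT replicate 1 and 1 without arid2/3/4 replicate 1 or 2 or WT replicate 2 or 3. For deacetylase genes the count lower was 0 in the averaged fit and 0 without WT replicate 1 or 2. Of 97 histone genes by annotation, which includes variants and related proteins, 9 were called higher (9.28%) and 9 lower (9.28%). Of 14 genes whose annotation names a transposon none was called (0 higher and 2 lower at an unadjusted p under 0.05), with a median of -0.26. Transposable elements outside the table were not analysed here.

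Of 15 genes of the shoot meristem and organ boundary 5 were higher in the mutants, LOB and STM to a different degree in each. CUC1, a NAC gene that marks organ boundaries, had 5.68, 4.59 and 3.98 FPKM in arid2/3/4 and 11.96, 13.1 and 6.38 FPKM in epcr1/2, against 0.556, 0.471 and 0.173 FPKM in WT, a difference of 2.51 ± 0.35 (SE, limma adjusted p = 0.00206), and was low in each WT library. LOB, another boundary gene, had 10.8, 11.6 and 9.19 FPKM in arid2/3/4 and 27.8, 23.99 and 22.6 FPKM in epcr1/2, against 3.52, 4.65 and 4.18 FPKM in WT, a difference of 1.75 ± 0.36 (SE, limma adjusted p = 0.0099). STM, the homeobox gene that keeps the meristem undifferentiated, had 7.82, 6.74 and 8.14 FPKM in arid2/3/4 and 38.9, 37.8 and 19.4 FPKM in epcr1/2, against 3.38, 4.25 and 2.09 FPKM in WT, a difference of 1.99 ± 0.59 (SE, limma adjusted p = 0.0422). LOB and STM were higher in epcr1/2 than in arid2/3/4, with arid2/3/4 minus epcr1/2 at -1.16 ± 0.15 (SE, limma adjusted p = 0.00428) for LOB and -1.89 ± 0.30 (SE, limma adjusted p = 0.00827) for STM. None of the 15 was called lower (1 at an unadjusted p under 0.05), with a median of 1.000, and 7 of the 15 differed between the mutants. The median was 0.49 in arid2/3/4 and 1.5 in epcr1/2, and 2 of the 15 passed the filter through the mutants. For meristem genes the count higher was 1 in the averaged fit, 2 from replicates 1 and 2 alone, 9 with a batch term or with 1 mean per genotype, 1 without WT replicate 1, 2 without epcr1/2 replicate 1 or 3 or WT replicate 2 or 3 and 3 without epcr1/2 replicate 2. For meristem genes the count lower was 1 with the replicate block, with a batch term, after median centring, after quantile normalization or from replicates 1 and 2 alone and 1 without arid2/3/4 replicate 3. LOB (1.71) and STM (2.03) were not called in the averaged fit. LOB (1.67) was not called without WT replicate 1. STM (1.73 to 2.16) was not called without epcr1/2 replicate 1, 2 or 3 or WT replicate 1, 2 or 3 or with no filter or from replicates 1 and 2 alone.

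Of the 9 tested floral genes 22.2% were called higher, against 8.03% of all tested genes. The flowering time list, with 5.26% higher and 15.8% lower, lay near the 8.03% and 12.7% of all tested genes. SEP3, a floral organ identity gene, had 22.2, 16.7 and 18.3 FPKM in arid2/3/4 and 13.7, 15.3 and 12.6 FPKM in epcr1/2, against 7.64, 7.69 and 2.36 FPKM in WT, a difference of 1.45 ± 0.32 (SE, limma adjusted p = 0.0131). Of 9 tested floral genes 2 were called higher and none lower (0 at an unadjusted p under 0.05), with a median of 0.64. The list median was 1.15 in arid2/3/4 and 0.12 in epcr1/2, and 4 of the 9 differed between the mutants. Summed over the floral list, arid2/3/4 ran from 49.1 to 56.1 FPKM and epcr1/2 from 29.7 to 33.3 FPKM, against 25.6 to 30.0 FPKM in WT, so that epcr1/2 overlapped WT. In 3 of the 9, 1 of the called genes among them, all WT libraries were under 0.5 FPKM, and these passed the filter through the mutants. For floral genes the count higher was 0 in the averaged fit, 1 with the filter at 2 FPKM, after quantile normalization or from replicates 1 and 2 alone, 6 with 1 mean per genotype and 1 without arid2/3/4 replicate 1 or 2, epcr1/2 replicate 1 or 2 or WT replicate 1, 2 or 3. For floral genes the count lower was 1 with no filter or from replicates 1 and 2 alone. SMZ, a repressor of flowering, was 6.07 to 7.6 FPKM in the 6 mutant libraries (median 7.06), against 2.98, 2.2 and 3.59 FPKM in WT, a difference of 1.04 ± 0.16 (SE, limma adjusted p = 0.00321). FT, the florigen gene, had 0.0619, 0 and 0.131 FPKM in arid2/3/4 and 0.228, 0.755 and 0.255 FPKM in epcr1/2, against 2.04, 3.25 and 0.664 FPKM in WT, a difference of -1.19 ± 0.29 (SE, limma adjusted p = 0.0193). For FT, epcr1/2 replicate 2 overlapped WT replicate 3. Of 19 tested flowering time genes 3 were called lower and 1, SMZ, higher, with a median of -0.41. For flowering time the count lower was 0 in the averaged fit, 1 with the filter at 2 FPKM or after median centring, 6 with 1 mean per genotype, 0 without WT replicate 1 or 2, 1 without arid2/3/4 replicate 1 or 2 or epcr1/2 replicate 1, 2 or 3 and 5 without arid2/3/4 replicate 3. SEP3 (1.65) and FT (-1.01) were not called in the averaged fit. FT (-1.13 to -0.89) was not called without WT replicate 1 or 2.

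RVE1, a clock-related MYB gene, was 4.26 to 6.65 FPKM in the 6 mutant libraries (median 6.08), against 13.7, 13.2 and 15.6 FPKM in WT, a difference of -1.18 ± 0.17 (SE, limma adjusted p = 0.00211), and was low in all mutant libraries. Of 16 clock genes 1 was called higher (6.25%) and 2 lower (12.5%), with a median of -0.55. Both shares lay near the 8.03% and 12.7% of all tested genes. For clock genes the count higher was 0 in the averaged fit, 2 with a batch term, 3 from replicates 1 and 2 alone, 0 without WT replicate 1 or 2 and 2 without epcr1/2 replicate 3 or WT replicate 3. For clock genes the count lower was 1 in the averaged fit, 4 with the replicate block, 7 from replicates 1 and 2 alone, 1 without WT replicate 1 or 2 and 7 without WT replicate 3. Among aquaporins, TIP3;1, the vacuolar water channel of seeds, had 14.6, 13.6 and 0.848 FPKM in arid2/3/4 and 11.9, 12.4 and 8.27 FPKM in epcr1/2, against 0.159, 0.0917 and 0.102 FPKM in WT, a difference of 3.07 ± 0.62 (SE, limma adjusted p = 0.00933). PIP2;4, of the plasma membrane, was 1.63 to 3.75 FPKM in the 6 mutant libraries (median 2.87), against 10.113, 9.46 and 7.6 FPKM in WT, a difference of -1.39 ± 0.21 (SE, limma adjusted p = 0.00297). Of 21 aquaporin genes 3 were called higher (14.3%) and 3 lower (14.3%). The pooled median of 0.53 joined a median of -0.61 in arid2/3/4 and one of 0.94 in epcr1/2, and 9 of the 21 differed between the mutants. In 2 of the 21 all WT libraries were under 0.5 FPKM, so they passed the filter through the mutants. For aquaporins the count higher was 0 in the averaged fit, 5 with 1 mean per genotype and 5 without arid2/3/4 replicate 3. For aquaporins the count lower was 6 with a batch term and 1 without WT replicate 1. Of 10 tested senescence genes 1 was called higher (10%) and none lower (0 at an unadjusted p under 0.05), with a median of 0.44. For senescence genes the count higher was 0 in the averaged fit, 2 with the replicate block, 3 with a batch term or from replicates 1 and 2 alone, 0 without WT replicate 1 or 2 and 2 without arid2/3/4 replicate 3. For senescence genes the count lower was 1 from replicates 1 and 2 alone and 1 without WT replicate 3. TIP3;1 (2.78) was not called in the averaged fit.

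**Figure D4:**
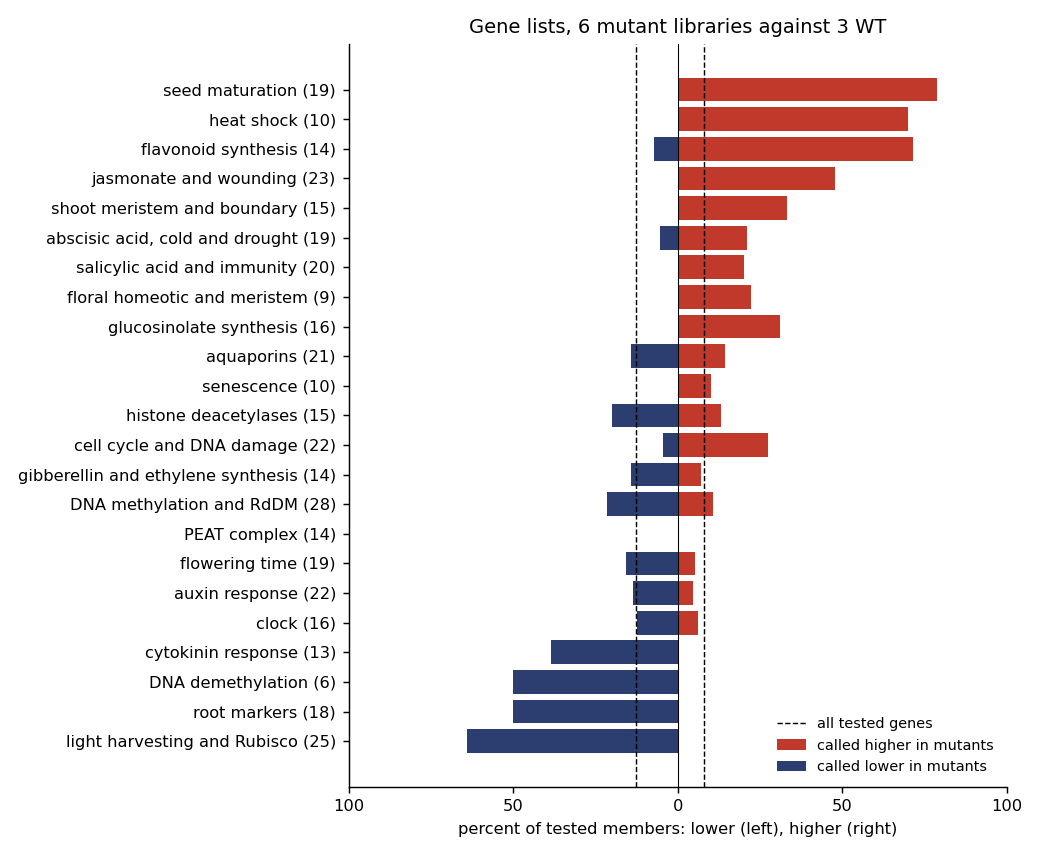
Percent of tested members of each gene list called higher (right, red) or lower (left, blue) in the 6 mutant libraries against 3 WT, with the number tested in brackets. Dashed lines give the share of all tested genes, 8.03% higher and 12.7% lower. Seed maturation, flavonoid and heat shock lists lie farthest to the right of their line, and light harvesting, root and demethylation lists farthest to the left.

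**Figure D5:**
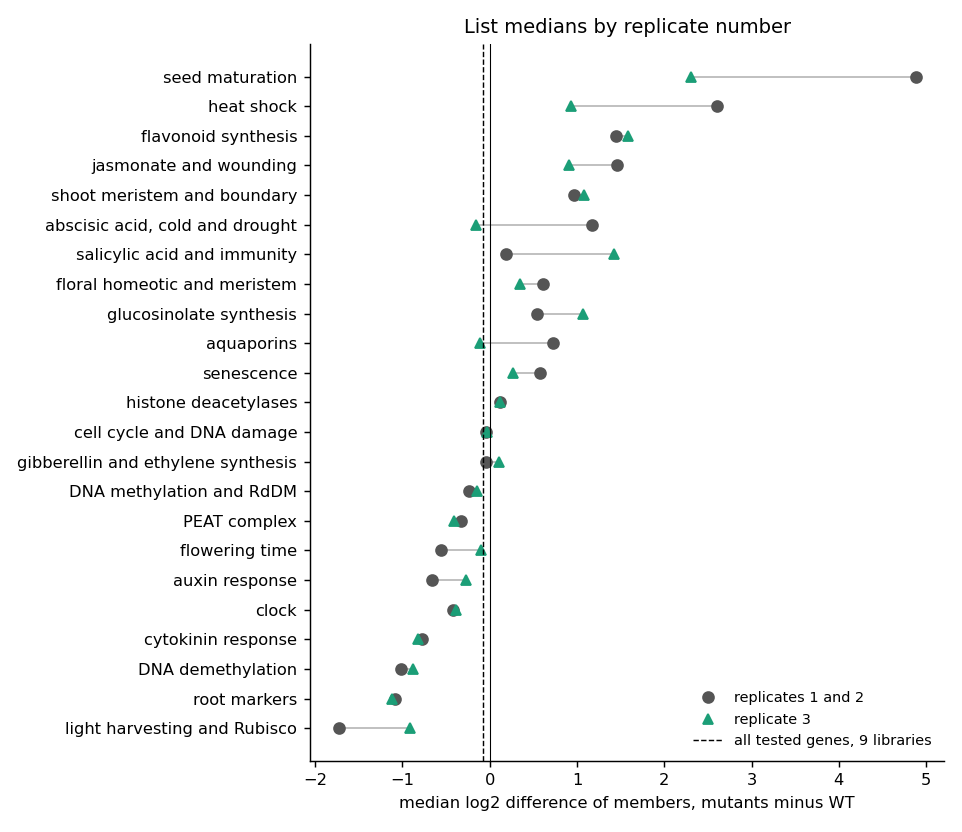
Median log2 difference of the members of each list, mutants minus WT, from the libraries numbered 1 and 2 (circles) and from those numbered 3 (triangles). The dashed line is the median of all tested genes, -0.08. The seed maturation, heat shock and light harvesting medians were larger in replicates 1 and 2, and the salicylic acid median was larger in replicate 3.

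Of 62 tested genes of the ERF family by annotation 9 were called higher (14.5%) and 7 lower (11.3%), with 6 common rises and 5 common falls. The shares of all tested genes were 8.03% and 12.7%. The common falls, whose values are not shown, were tny, SHN2, WRI4, AT3G57600 and AT4G13620. Rising members were among the transcription factor genes of the largest common size. Rap2.6L, an ERF gene, had 42.6, 41.8 and 35.3 FPKM in arid2/3/4 and 93.8, 92.6 and 90.9 FPKM in epcr1/2, against 2.92, 2.56 and 4.96 FPKM in WT, a difference of 3.82 ± 0.38 (SE, limma adjusted p = 0.000463). DREB19, of the dehydration-responsive branch, had 11.7, 9.06 and 11.5 FPKM in arid2/3/4 and 7.81, 7.44 and 8.42 FPKM in epcr1/2, against 0, 0.243 and 0.384 FPKM in WT, a difference of 3.09 ± 0.20 (SE, limma adjusted p = 0.000126). AT5G61890, annotated with the same DNA-binding domain, was 3.84 to 19.4 FPKM in the 6 mutant libraries (median 6.2), against 0.252, 0.125 and 0.305 FPKM in WT, a difference of 2.86 ± 0.47 (SE, limma adjusted p = 0.00396). All 3 were under 5 FPKM in each WT library. DREB19 and AT5G61890 were under 0.5 FPKM there, so they passed the filter through the mutants and had to differ. HB-7 (AT2G46680), a homeobox gene that water deficit induces, had 251, 212 and 119 FPKM in arid2/3/4 and 201, 208 and 149 FPKM in epcr1/2, against 35.98, 31.4 and 46.5 FPKM in WT, a difference of 2.27 ± 0.25 (SE, limma adjusted p = 0.000674), with 2.27 in arid2/3/4 and 2.27 in epcr1/2. Lower in both mutants were BS1, a small bHLH gene annotated as a suppressor of a brassinosteroid receptor mutant, which was 0.938 to 2.69 FPKM in the 6 mutant libraries (median 1.32), against 12.8, 11.9 and 20.1 FPKM in WT, a difference of -2.65 ± 0.25 (SE, limma adjusted p = 0.000408), and the bZIP gene BZO2H3, which was 1.76 to 7.26 FPKM in the 6 mutant libraries (median 2.87), against 22.4, 19.8 and 34.8 FPKM in WT, a difference of -2.50 ± 0.39 (SE, limma adjusted p = 0.00316). By annotation 14 of 75 NAC genes were called higher (18.7%) and 5 lower (6.67%). Likewise 9 of 49 WRKY genes were called higher (18.4%) and 4 lower (8.16%).

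Lipid-transfer genes moved in both directions, with 11 of 77 called higher (14.3%) and 17 lower (22.1%), or 6 common rises and 14 common falls. Of 41 polyketide cyclase and major latex protein genes 9 were called higher (22%) and 5 lower (12.2%). The shares of all tested genes were 8.03% and 12.7%. Some members of these families were among the largest rises in untransformed FPKM. LTP2, a lipid-transfer protein gene of the epidermis, had 1399, 1264 and 529 FPKM in arid2/3/4 and 6443, 5112 and 2316 FPKM in epcr1/2, against 121, 132 and 118 FPKM in WT, a difference of 4.03 ± 0.72 (SE, limma adjusted p = 0.0055). It was highest in epcr1/2. LTP3, chosen after its values were seen, had 1621, 1577 and 90.3 FPKM in arid2/3/4 and 1575, 1434 and 179 FPKM in epcr1/2, against 36.9, 49.6 and 34.02 FPKM in WT, a difference of 4.05 ± 0.99 (SE, limma adjusted p = 0.0197), with the libraries numbered 3 far below the others of their genotype. AT4G23680, annotated in the polyketide cyclase and lipid transport superfamily, had 3019, 2673 and 1160.0 FPKM in arid2/3/4 and 3966, 3090.2 and 1446 FPKM in epcr1/2, against 163, 183 and 93.1 FPKM in WT, a difference of 4.05 ± 0.44 (SE, limma adjusted p = 0.000674). All 6 mutant libraries of these genes lay above WT. LTP2 (3.83) and LTP3 (3.51) were not called in the averaged fit. LTP3 (3.95 to 4.21) was not called without WT replicate 1, 2 or 3.

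Common-response genes came in part in runs along a chromosome. The next tested gene belonged to the same direction for 7.87% of the common rises, where 3.72% of tested genes were common rises, and for 8.43% of the common falls, where 5.22% of tested genes were common falls. Runs of 3 or more neighbours numbered 5 among the rises and 10 among the falls. Reads may be split between near-identical copies. On chromosome 4, 5 neighbouring lipid-transfer genes among those tested, from AT4G22485 to AT4G22517, were all lower. AT4G22485 had 11.3, 9.43 and 5.12 FPKM in arid2/3/4 and 1.81, 1.95 and 6.47 FPKM in epcr1/2, against 119.8, 128 and 334 FPKM in WT, a difference of -4.84 ± 0.55 (SE, limma adjusted p = 0.000751), and AT4G22517 had 27.8, 22.6 and 3.34 FPKM in arid2/3/4 and 8.28, 11.9 and 8.1 FPKM in epcr1/2, against 342, 359 and 225 FPKM in WT, a difference of -4.64 ± 0.54 (SE, limma adjusted p = 0.000813). The other three had differences of -3.95 for AT4G22490, -4.60 for AT4G22505 and -3.70 for AT4G22513. On chromosome 5 a run from AT5G46870 to AT5G46900 was lower, in which AT5G46900 had 2.45, 2.07 and 0.315 FPKM in arid2/3/4 and 0.0699, 0 and 0.0667 FPKM in epcr1/2, against 32.7, 35.7 and 46.8 FPKM in WT, a difference of -4.62 ± 0.45 (SE, limma adjusted p = 0.000415).

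On chromosome 1 a run of lectin genes changed sign between neighbours. AT1G52000, MBP2 and MBP1 were higher, and the adjacent AT1G52050, AT1G52060 and AT1G52070 were lower. MBP1, which binds myrosinase, had 118, 105 and 93.4 FPKM in arid2/3/4 and 69.3, 66.03 and 36.7 FPKM in epcr1/2, against 10.097, 10.6 and 7.47 FPKM in WT, a difference of 2.91 ± 0.34 (SE, limma adjusted p = 0.000813). AT1G52070, a mannose-binding lectin gene, had 8.77, 8.03 and 11.7 FPKM in arid2/3/4 and 1.9, 1.8 and 1.16 FPKM in epcr1/2, against 61.8, 58.2 and 77.4 FPKM in WT, a difference of -3.67 ± 0.59 (SE, limma adjusted p = 0.00365). Neither gene overlapped between mutants and WT. Of the others, MBP2 differed by 3.15, AT1G52000 by 1.86, AT1G52050 by -2.26 and AT1G52060 by -3.49. By annotation 13 of 30 mannose-binding lectin genes were called higher (43.3%) and 8 lower (26.7%), against 8.03% and 12.7% of all tested genes. On chromosome 3, the multidrug resistance-associated transporter genes ABCC3, ABCC6 and ABCC7 and the next gene, AT3G13110, were higher. ABCC3 had 90.6, 89.4 and 74.3 FPKM in arid2/3/4 and 139, 144 and 163 FPKM in epcr1/2, against 19.5, 19.7 and 12.8 FPKM in WT, a difference of 2.65 ± 0.28 (SE, limma adjusted p = 0.000604), ABCC6 differed by 1.23 and ABCC7 by 1.396. Apart from AT4G22485, AT4G22490, AT4G22505, AT4G22517, AT5G46900 and AT1G52070, the genes given here for the runs were chosen after their values were seen. AT1G52000 (1.63), AT1G52050 (-2.12), AT1G52060 (-3.49) and AT1G52070 (-3.73) were not called in the averaged fit.

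Length, exon number and level of the common-response genes were set beside those of all tested genes. Their median transcript length was 1440 bases for the rises and 1438 bases for the falls, against 1697 bases for all tested genes with a known structure. Genes of a single exon made up 27.9% of the rises, 17.64% of the falls and 17.2% of all. By mean level over all 9 libraries, 12.3% of the 698 genes at 200 FPKM or more were common falls and 5.73% were common rises, and of the 7946 genes at 10 to 50 FPKM 4.33% were common falls and 3.75% common rises. Among the 3259 genes under 2 FPKM, 1.35% were common rises and 5.03% common falls. Level is not independent of the rule, since the pseudocount of 1 limits the size that low genes can reach. In 128 of the 788 rises all 3 WT libraries were under 0.5 FPKM, so these genes passed the filter through the mutants, and in 40 of the 1104 falls all 6 mutant libraries were under 0.5 FPKM. As a description of values that the rule used, over the 788 rises the median difference was 1.94 in replicates 1 and 2 and 1.56 in replicate 3, and over the 1104 falls it was -1.76 in replicates 1 and 2 and -1.27 in replicate 3.

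The genes that differed least between the mutants included a glycosyltransferase and a peroxidase gene. UGT87A2, a glycosyltransferase gene, had 111, 105 and 35.9 FPKM in arid2/3/4 and 85.4, 75.5 and 65.6 FPKM in epcr1/2, against 17.42, 19.4 and 19.4 FPKM in WT, a difference of 1.95 ± 0.32 (SE, limma adjusted p = 0.00393), with 1.95 in arid2/3/4 and 1.95 in epcr1/2. AT5G19890, a peroxidase gene, was 0.866 to 1.14 FPKM in the 6 mutant libraries (median 1.04), against 4.52, 4.08 and 3.09 FPKM in WT, with -1.27 in arid2/3/4 and -1.27 in epcr1/2. AT5G44973, which encodes a defensin-like protein, was listed at 0 in all 6 mutant libraries, against 1.87, 2.01 and 2.02 FPKM in WT (limma adjusted p = 0.000132). With both mutants at 0, no difference between them could be seen. The gene passed the filter through WT and had to differ from it. Other genes of the common response differed in size between the mutants, as STM, LOB, NAC044, Rap2.6L and AT1G52070 did. AT1G73120, an F-box gene, had 30.0, 28.2 and 18.96 FPKM in arid2/3/4 and 241, 205 and 169.9 FPKM in epcr1/2, against 6.51, 6.43 and 10.110 FPKM in WT, and arid2/3/4 minus epcr1/2 was -2.96 ± 0.24 (SE, limma adjusted p = 0.000741). AT5G51440, of the small heat shock protein family, had 35.5, 33.2 and 13.5 FPKM in arid2/3/4 and 227, 207 and 91.3 FPKM in epcr1/2, against 3.06, 3.18 and 9.72 FPKM in WT, and arid2/3/4 minus epcr1/2 was -2.64 ± 0.54 (SE, limma adjusted p = 0.0207). Both were above WT in all mutant libraries and higher in epcr1/2. AT1G73120 (2.92) and AT5G51440 (3.09) were not called in the averaged fit. AT1G73120 (2.76 to 3.45) was not called without epcr1/2 replicate 1, 2 or 3 or WT replicate 1, 2 or 3 or from replicates 1 and 2 alone. AT5G51440 (3.29 to 3.31) was not called without WT replicate 1 or 2.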

How the data were processed

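Messenger RNA libraries of 9 seedling samples, 3 per genotype, were sequenced by the authors. Reads were aligned with STAR 2.5.2b to TAIR10 and quantified with Cuffdiff, per the submitters' processing notes. The deposited table gives 1 value per gene and library. Its unit was taken from the values as FPKM made by the authors, since the header does not state it, and no counts were used here. Organellar genes, 278 in number and all at 0, were left out, which leaves 27839 nuclear genes, of which 6671 were not tested.

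Values were tested as log2(FPKM + 1) with limma 3.58.1 in R 4.3.3, with a mean-variance trend and Benjamini-Hochberg adjustment over the 21168 genes that reached 0.5 FPKM in 3 or more libraries. The pooled fit has 1 mean for 6 mutant and 1 for 3 WT libraries. The contrast between the mutants comes from a fit with 1 mean per genotype. A log2 difference on this scale understates the change of low genes. The fits were run on simulated data with independent libraries and the same change in both mutants. That simulation held no near-alike replicates and no batch, so it cannot show how the fits behave with them. Rough depth was read from the steps of low values. Tables and plots used Python 3.11.15, pandas 2.3.3 and matplotlib 3.10.9. Names, lengths, gene order and promoters came from RefSeq TAIR10.1, and coordinates are of that assembly.

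Named genes are the mutated genes, the 12 largest common rises and falls with a mean of at least 5 FPKM in the higher group, up to 4 called members of each list (2 where none was called), the 5 largest rises and falls in FPKM, 8 transcription factors, the 6 genes most alike in both mutants and the 3 most different in each direction, and others are marked where given. A few genes are not reported here. The genes, the 23 lists and the tests were chosen with earlier results of these data known.

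Libraries with the same number deviated together from their genotype means (r 0.635 to 0.835 in 9 pairs), so the numbers pair the samples, as read from the data, and the labels give only the number. Alternatives were the replicate block, a batch term for libraries numbered 3, 1 mean per genotype, a pseudocount of 0.1, no filter, a filter at 2 FPKM, median centring, quantile normalization, replicates 1 and 2 only, the averaged fit and each library left out.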

Additional observations from a re-analysis of the deposited data

Results flagged for a closer look

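Each gene given in the report was checked for 1 library that lay far from the other 5 mutant libraries. The gap between an end library and its nearest neighbour was set against the whole range (Dixon's test). Of 106 genes 10 were marked. By chance the test marks about 1 in 20 where the 6 values are independent and of 1 group. These libraries came from both mutants, with replicates 1 and 2 nearly alike, so that rate is no baseline here. The library that stood apart was arid2/3/4 replicate 3 for AT1G68250 (21.8 FPKM), AT3G15450 (18.5 FPKM), LHCB5 (1633 FPKM) and NRPD1B (1.95 FPKM). The library that stood apart was epcr1/2 replicate 3 for DFR (414 FPKM), CHS (631 FPKM), CORI3 (2244 FPKM), SOT17 (79.4 FPKM) and AT1G52000 (83.6 FPKM). The library that stood apart was epcr1/2 replicate 2 for FT (0.755 FPKM). Of these values those of AT1G68250 and AT1G52000 were the lowest of the 6 mutant libraries and the others were the highest. All but 1 of them came from libraries numbered 3, which were sequenced deeper by the rough estimate. Whether the depth or the batch had a part in this was not tested.

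The log2 difference of arid2/3/4 minus epcr1/2 passed the test between the mutants (limma, adjusted p under 0.05) in 18 of the genes given. Among the mutated genes it was -2.67 for ARID2, -0.99 for ARID4 and 3.27 for EPCR1. It was negative, with a higher level in epcr1/2, at -1.19 for NAC044, -1.16 for LOB, -1.89 for STM, -1.20 for Rap2.6L, -1.36 for AT5G61890, -2.12 for LTP2, -0.81 for ABCC3, -2.96 for AT1G73120 and -2.64 for AT5G51440. All of these were above WT in the pooled comparison. It was positive, with a lower level in epcr1/2, at 1.01 for TGG1, 0.73 for CASP1, 0.90 for PIN2, 2.000 for AT1G52070, 1.21 for AT1G52050 and 1.82 for AT1G52060. All of these were below WT in the pooled comparison. Apart from the mutated genes, the change from WT was thus larger in epcr1/2 for each of the genes given. That did not hold for all genes. Of the 182 common-response genes that differed between the mutants, 151 changed more in epcr1/2 and 31 changed more in arid2/3/4.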

How the results depend on the processing

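The count of genes higher in the mutants, 1700, was 2684 with the replicate block, 3220 with a batch term, 2930 from replicates 1 and 2 only and 538 in the averaged fit. The count lower, 2680, was 4218 with the block, 4956 with a batch term, 4586 from replicates 1 and 2 only and 870 in the averaged fit. Leaving out 1 library gave 725 to 2202 higher and 1155 to 3739 lower, with the fewest without WT replicate 1. Common-response genes numbered 441 higher and 660 lower in the averaged fit, and 1739 were lower from replicates 1 and 2 only. With a minimum of 0.5 in each mutant they were 1438 higher and 2315 lower, and with a minimum of 2 they were 212 and 134. Leaving out 1 library gave 555 to 963 common rises and 778 to 1519 common falls. Of the 1892 genes 1066 (56.3%) stayed in the common response without any 1 of the 9 libraries, 1891 were in it with the replicate block, 1670 after median centring and 1695 after quantile normalization. Genes that differed between the mutants, 2218, numbered 6039 with the block, 7338 with a batch term, 11396 from replicates 1 and 2 only, 49 in the averaged fit and 834 to 3284 with 1 library left out. The share of calls that were higher was 38.8%, 47.6% after median centring and 44.0% after quantile normalization. The averaged fit has fewer samples, with 3 residual degrees of freedom against 7, and the cause of the other shifts was not tested.

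Of 3013 values of named genes under the alternatives, 2699 kept their direction and side of the threshold, 298 lost the call, 15 gained one and 1 changed sign. The sign changed for EPCR2, a gene that no fit of the pooled comparison called, whose log2 difference ran from -0.0127 without WT replicate 2 to 0.327 without WT replicate 3. Of 874 list counts, 672 stayed within 1.5 times and 202 moved further. The replicate block changed the call of SOG1 and of no other gene given in the report. Depth limits genes under 2 FPKM most, and intervals from counts could not be given because the files hold FPKM.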
